A study of Mus musculus with 11 samples.

Results

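Lung lineage transcription factors are the proteins that set and hold the identity of lung epithelial cells during development and in the adult. The set described here holds 10 genes named by symbol: Nkx2-1, Cebpa, Gata6, Klf5, Id2, Foxp1, Foxp2, Sox2, Sox9 and Hmga2. This list was chosen with earlier results of these data known. All 10 were found among the 24515 genes of the count table, and 9 passed the filter for testing, with Hmga2 below it. The libraries come from 5 mice, as 6 pieces of lung tumor and 5 pieces of nearby normal lung. Every mouse carried the Gprc5a-/- genotype, the normal lungs included, so no lung with an intact Gprc5a gene was analysed here. Every mouse had also been injected intraperitoneally with the tobacco nitrosamine NNK (nicotine-derived nitrosamine ketone) at 50 mg/kg, 3 times per week for 8 weeks, and tissue was taken 4 to 7 months later.

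The ADN group holds 3 tumors, from mouse m335 at 4 months after NNK, mouse m368 at 6 months and mouse m350 at 7 months. The ADC group holds 3 tumors, from mouse m335 at 4 months and from mice m372 and m378 at 7 months. What the tags ADN and ADC stand for is not spelled out in the labels, so they are used as written. The normal group holds 1 adjacent lung from each of mice m335, m368, m350, m372 and m378. Values below follow these orders of mice within each group. Both tumors of mouse m335 share 1 normal lung, and the ADN and the ADC comparison share normal lungs, so these are not independent.

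Nkx2-1 and Gata6 are needed for the lung to form from the foregut, and in the adult they drive surfactant genes together with Cebpa. Sox2 marks the proximal airway lineage of the embryonic lung, while Sox9 and Id2 mark the distal tip progenitors that go on to form alveoli. Foxp1 and Foxp2 are forkhead repressors of the developing distal epithelium, Klf5 is a zinc finger factor of epithelial maturation, and Hmga2 is a chromatin protein of embryonic tissues that is mostly silent in adult lung.

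Total counts lay between 19938822 and 46987587 per library, and mouse m372 gave both extremes, its ADC tumor the deepest and its normal lung the shallowest. Gprc5a itself had 0 to 19 counts per library, at most 0.634 CPM (reads scaled to a common library size, here by the library total). All 11 libraries carried alveolar type 2 markers, with a sum over 8 genes of 29800 to 116000 CPM of library totals in tumors and 40300 to 54400 CPM in normal lungs. The ADC tumor of mouse m335 held the lowest of these sums, while the other tumors lay between 87300 and 116000 CPM. The same ADC tumor held the highest sums of T and NK cell markers (294 CPM over 9 genes) and B cell markers (459 CPM over 5 genes) of all libraries. Endothelial markers summed to 510 to 917 CPM in tumors and 2860 to 4440 CPM in normal lungs. Of these 8 markers, 7 were called lower in tumors, where 7.91% of all tested genes were lower. Thymus markers summed to 369 CPM in the normal lung of mouse m372, against 11.7 to 46.6 CPM in the other normal lungs. The ADN tumor of mouse m368 was the highest of all libraries in 15.9% of tested genes.

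The question put to these genes is whether tumors keep, raise or lose the lineage factors of the normal lung of the same mouse. Cebpa, a factor of alveolar type 2 cells, and Foxp2 were higher in tumors, and none of the 9 tested genes was called lower. By edgeR's quasi-likelihood test with the mouse as a block, 2 of 9 passed an adjusted p of 0.05 as higher and 0 as lower, where 3.68% of all 15175 tested genes were higher and 7.91% lower. Klf5 missed the threshold with an adjusted p of 0.0521. The remaining tested genes, Nkx2-1, Sox2, Sox9, Gata6, Id2 and Foxp1, were not called, with adjusted p from 0.138 to 0.996. The median log2 fold change of the 9 genes was 0.54, against -0.03 for all tested genes. Because the list was chosen with earlier results of these data known, these counts and medians describe the set and do not test it. In bulk tissue, a change in the number of cells of a type and a change in RNA per cell cannot be told apart.

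**Figure D1:**
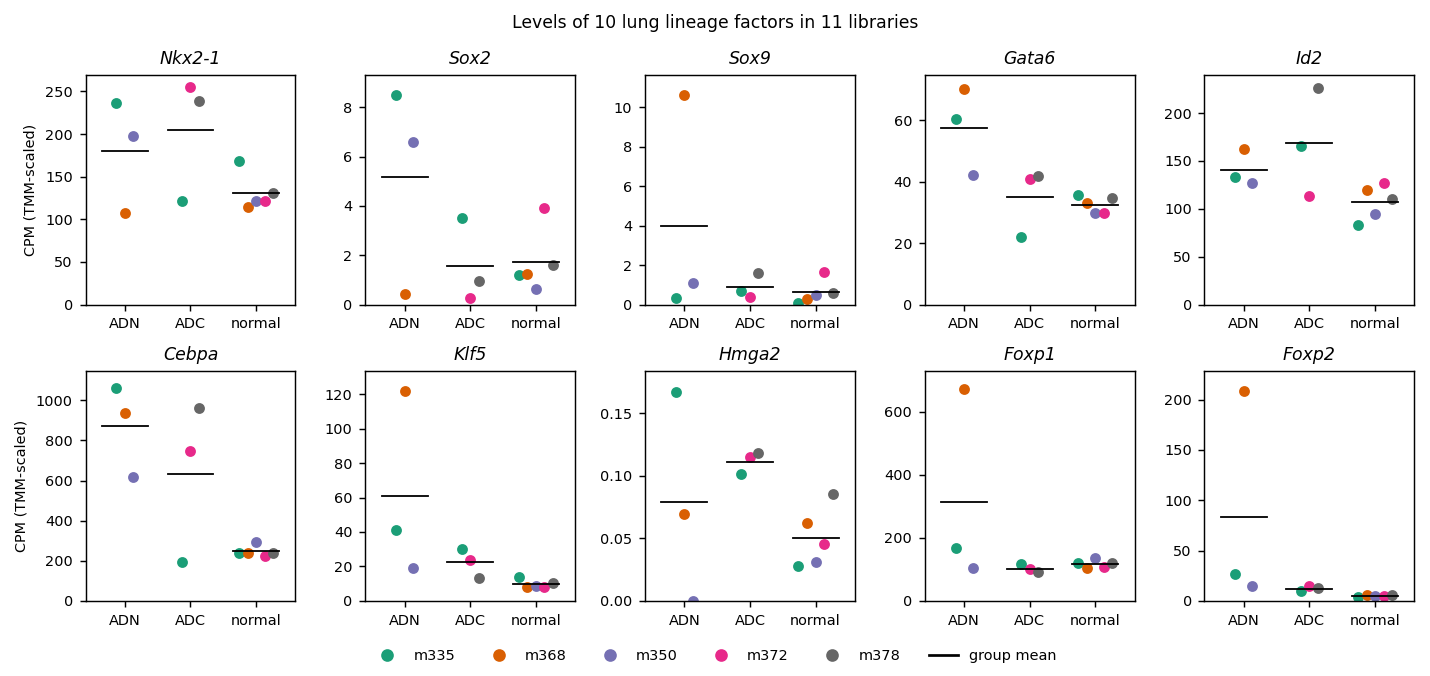
Levels of the 10 factors in CPM on TMM-scaled library sizes (linear axes from 0), with ADN tumors at the left of each panel, ADC tumors in the middle and normal lungs at the right. Each point is a library coloured by mouse and each bar is the group mean; the ADN tumor of mouse m368 stands far above the rest for Foxp1 (672 CPM) and Foxp2 (208 CPM), and every tumor lies above every normal lung for Foxp2.

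In ADN tumors against normal lungs the same 2 genes, Cebpa and Foxp2, were called higher and 0 lower, where 2.68% of all tested genes were higher and 4.84% lower, and the median of the 9 genes was 1.05 (all tested genes, -0.08). In ADC tumors against normal lungs 0 of 9 were called, where 1.01% of tested genes were higher and 3.98% lower. There, 2 of the 9 (Klf5 and Foxp2) had an unadjusted p under 0.05 in edgeR, beside 2824 of all 15175 tested genes, and DESeq2 also called 0 of the 9. The median was 0.62 in ADC tumors, beside 0.00 for all tested genes. All 9 log2 fold changes were above 0 in ADN tumors and 6 of 9 were above 0 in ADC tumors.

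**Figure D2:**
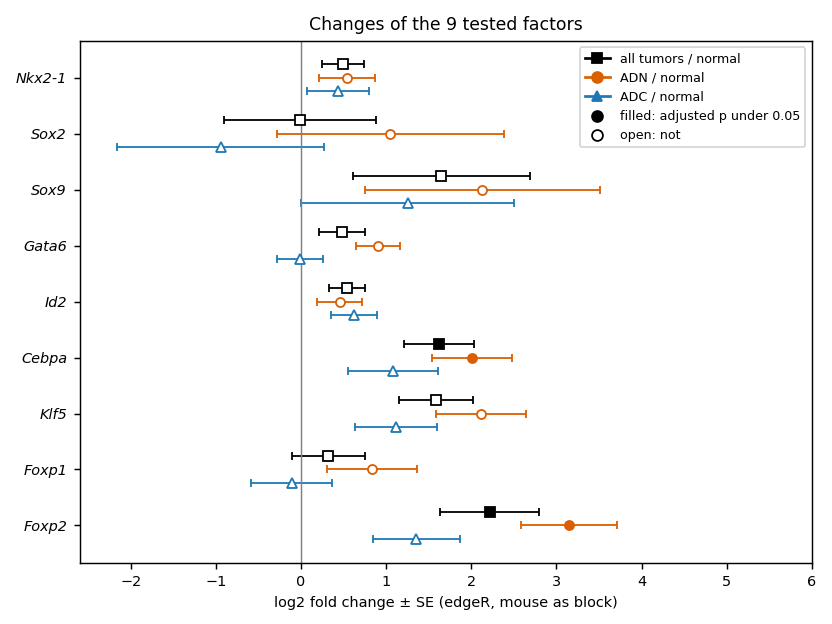
Log2 fold changes with standard errors from edgeR, for all 6 tumors (squares), the 3 ADN tumors (circles) and the 3 ADC tumors (triangles), each over the 5 normal lungs. Filled symbols passed an adjusted p of 0.05: Cebpa and Foxp2 in all tumors and in ADN tumors.

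Cebpa (chromosome 7, 35119293 to 35121931 on the plus strand, GRCm38) encodes the leucine zipper factor C/EBP alpha, which holds type 2 cells in their mature state. Its level was 1060, 938 and 618 CPM in the ADN tumors and 193, 747 and 963 CPM in the ADC tumors, against 240, 239, 296, 223 and 240 CPM in the normal lungs. Of the 6 tumors, 5 lay above every normal lung, while mouse m335's ADC tumor lay below every one. Means were 753 ± 317 CPM in tumors and 248 ± 27.9 CPM in normal lungs (SD, n = 6 and 5). The log2 fold change in tumors was 1.62 ± 0.41 (SE, adjusted p = 0.0358 by edgeR), and in ADN tumors it was 2.01 ± 0.47 (adjusted p = 0.0404 by edgeR). In ADC tumors it was 1.08 ± 0.53 (adjusted p = 0.331 by edgeR). The ADC tumor of mouse m335, the library with the low alveolar type 2 sum and the high lymphocyte sums, moves with this result, and its part in it was not tested. Without that tumor the log2 fold change was 1.83 in all tumors (adjusted p = 0.000387 by edgeR) and 1.89 in ADC tumors (adjusted p = 0.0168 by edgeR). In ADC tumors it was 0.55 without the ADC tumor of mouse m378 (adjusted p = 0.803 by edgeR) and 0.68 without that of mouse m372 (adjusted p = 0.679 by edgeR). The call in all tumors was lost when any other single library was left out (adjusted p from 0.0682 to 0.118 by edgeR). The call in ADN tumors was likewise lost (adjusted p from 0.0511 to 0.32 by edgeR). The 0.32 came without the ADN tumor of mouse m335, where 0 of all 15097 tested genes were called in ADN tumors.

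The file lists 5 Cebpa transcripts that share 1 start, and 4 of them hold equal shares of 20.2% in every library, so no split between them is read. The bases before that start are shown because Cebpa was called higher and its listed transcripts share a single start. The stretch spans chr7:35119043-35119292, plus strand (RefSeq sequence, GRCm38.p6), and capitals mark matches to motifs of the families in the set.

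Cebpa: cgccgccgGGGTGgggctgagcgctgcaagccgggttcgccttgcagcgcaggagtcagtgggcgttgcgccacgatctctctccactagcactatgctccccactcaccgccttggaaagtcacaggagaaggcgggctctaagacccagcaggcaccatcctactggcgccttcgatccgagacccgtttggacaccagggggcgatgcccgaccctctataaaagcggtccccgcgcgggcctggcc

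Motifs were searched on both strands: CTCAAG for NKX2-1, AGATAA for GATA factors, TTGCNNAA for C/EBP, CACCC for KLF factors, ACAAT for SOX factors and TGTTTA for forkhead factors. Over the 250 bases before 32851 RefSeq starts, the shares with a match were 13.3% for NKX2-1, 9.99% for GATA, 9.56% for C/EBP, 52.0% for KLF, 27.7% for SOX and 12.0% for forkhead. The Cebpa stretch holds a single match, to the KLF motif on the minus strand at bases -242 to -238 from the start. Its GC content was 66.4%, against a median of 52.4% over all these stretches. Of the 10 genes, 6 were found in the RefSeq table (Nkx2-1, Sox2, Id2, Cebpa, Hmga2 and Foxp1).

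Nkx2-1 (chromosome 12, 56531935 to 56536908, minus strand) is the homeodomain factor that defines lung and thyroid epithelium. It stood at 236, 107 and 198 CPM in ADN tumors and 121, 255 and 239 CPM in ADC tumors, against 168, 115, 122, 121 and 131 CPM in normal lungs. In 4 of 6 tumors it was above the highest normal lung, the ADN tumor of mouse m368 was below the lowest, and the groups overlapped. Fitted changes on the log2 scale were 0.49 ± 0.25 in tumors (adjusted p = 0.263 by edgeR), 0.54 ± 0.33 in ADN tumors and 0.44 ± 0.36 in ADC tumors. Against the own normal lung, the difference in log2 CPM ran from -0.48 in the ADC tumor of mouse m335 to 1.07 in the ADC tumor of mouse m372. With mouse m335's ADC tumor left out, the gene was among 5 called higher in tumors, with Gata6, Cebpa, Klf5 and Foxp2. Calls rose over all genes in that run, with 1447 of 15106 higher, against 558 of 15175 in the fit of all libraries.

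Nkx2-1 has 2 transcripts in the file, which start at different places. The share assigned to the upstream start (56536908) was 10%, 10.4% and 18.9% in ADN tumors and 9.93%, 31.7% and 18.5% in ADC tumors, against 6.73%, 13.8%, 12.5%, 10.9% and 15.6% in normal lungs. It was highest in the ADC tumor of mouse m372, which also had the highest Nkx2-1 level, and the groups overlapped. These shares are estimates by the authors' tools from overlapping transcripts, so they were not tested. The stretch before this upstream start is chr12:56536909-56537158, minus strand (RefSeq sequence, GRCm38.p6), shown because its share differed between tumors. Capitals mark its single match, to the SOX motif at bases -113 to -109, and its GC content was 50.8%.

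Nkx2-1 upstream start: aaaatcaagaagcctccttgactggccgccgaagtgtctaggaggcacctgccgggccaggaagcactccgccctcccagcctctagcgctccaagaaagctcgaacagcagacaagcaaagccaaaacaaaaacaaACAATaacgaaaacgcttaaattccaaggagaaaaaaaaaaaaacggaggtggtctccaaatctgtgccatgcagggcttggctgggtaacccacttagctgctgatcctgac

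Genes that NKX2-1 and C/EBP alpha are known to drive were followed as a list of 15, all tested. Of these, 4 were called higher in tumors, 0 lower, and 11 were not called, where 3.68% of all tested genes were higher and 7.91% lower. The median log2 fold change was 0.78, against -0.03 for all tested genes. Ctsh, a protease that processes surfactant protein, averaged 1490 ± 466 CPM in tumors and 282 ± 34.3 CPM in normal lungs (SD, n = 6 and 5). Its log2 fold change was 2.32 ± 0.24 (adjusted p = 0.000914 by edgeR). The surfactant genes Sftpa1 and Sftpd had log2 fold changes of 1.46 ± 0.28 and 1.32 ± 0.35, and Lamp3, a lysosomal gene of type 2 cells, had 0.91 ± 0.22 (adjusted p from 0.0109 to 0.0407 by edgeR). Each of these 4 was above the own normal lung in 6 of 6 tumors. Among the uncalled genes, the airway genes Scgb1a1, Scgb3a2 and Cyp2f2 averaged lower in tumors and the rest higher. The 3 averaged 2150, 113 and 438 CPM in tumors, against 7700, 246 and 569 CPM in normal lungs. They lay below the own normal lung in 5, 5 and 4 of 6 tumors. In ADN tumors 3 of the 15 were called higher and in ADC tumors 1, Ctsh, where 2.68% and 1.01% of all tested genes were higher. The list overlaps the alveolar type 2 markers, of which 2 of 8 were called higher.

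Gata6 (chromosome 18, 11052510 to 11085635, plus strand) is a zinc finger factor of foregut endoderm and of alveolar cells. Its level was 60.3, 70.0 and 42.0 CPM in ADN tumors and 22.1, 40.9 and 41.7 CPM in ADC tumors, against 35.5, 32.9, 29.8, 29.9 and 34.5 CPM in normal lungs. As with Cebpa, 5 tumors were above every normal lung, while mouse m335's ADC tumor was below every one. In ADN tumors the log2 fold change was 0.90 ± 0.26 (adjusted p = 0.077 by edgeR), with -0.01 ± 0.27 in ADC tumors and 0.48 ± 0.27 in all tumors (adjusted p = 0.294 by edgeR). The gene shares 93 exon bases, 1.43% of its exon length, with an antisense gene, 1010001N08Rik, and the strand setting of the counting is not given in the sources used here.

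Klf5 (chromosome 14, 99298691 to 99313409, plus strand) had 41.3, 122 and 19.4 CPM in ADN tumors and 29.9, 23.6 and 13.6 CPM in ADC tumors, against 13.9, 8.17, 8.75, 7.99 and 10.7 CPM in normal lungs. Every tumor was above its own normal lung, and 5 of 6 were above all normal lungs. The ADC tumor of mouse m378 fell within the normal range. Among the 9 tested genes, 2 (Klf5 and Foxp2) were above the own normal lung in every tumor, which holds for 8.38% of all tested genes. Its log2 fold change was 1.58 ± 0.44 in tumors (adjusted p = 0.0521 by edgeR), 2.11 ± 0.53 in ADN tumors (adjusted p = 0.0504 by edgeR) and 1.12 ± 0.48 in ADC tumors (adjusted p = 0.264 by edgeR). Without the ADN tumor of mouse m368 the value in all tumors was 1.12, with a smaller adjusted p of 0.0342 by edgeR, and in ADN tumors it was 1.35 (adjusted p = 0.0895 by edgeR). The value in all tumors also passed without the normal lung of mouse m368 (0.0298) and with mouse m335's ADC tumor left out (0.0365), and in that second case the value in ADN tumors passed too (0.041). DESeq2 called Klf5 in all tumors with an adjusted p of 0.00154. Basal cell markers, a cell type that expresses Klf5, summed to 1.09 to 39.6 CPM in tumors and 4.12 to 18.9 CPM in normal lungs, with 0 of 5 called. Both tumors of mouse m335 had the highest of these sums. The highest Klf5 level was in the ADN tumor of mouse m368, where the sum was 12.6 CPM. The part of basal cells in the Klf5 levels was not tested.

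Id2 (chromosome 12, 25093799 to 25096092, minus strand) encodes a helix-loop-helix protein that blocks DNA binding of its partners. It had 133, 163 and 127 CPM in ADN tumors and 166, 113 and 226 CPM in ADC tumors, against 83.0, 120, 94.4, 127 and 110 CPM in normal lungs. The ADC tumor of mouse m372 was the single tumor below its own normal lung, and the groups overlapped through it. Over all tumors the log2 fold change was 0.54 ± 0.21 (adjusted p = 0.138 by edgeR), 0.45 ± 0.27 in ADN tumors and 0.62 ± 0.27 in ADC tumors.

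**Figure D3:**
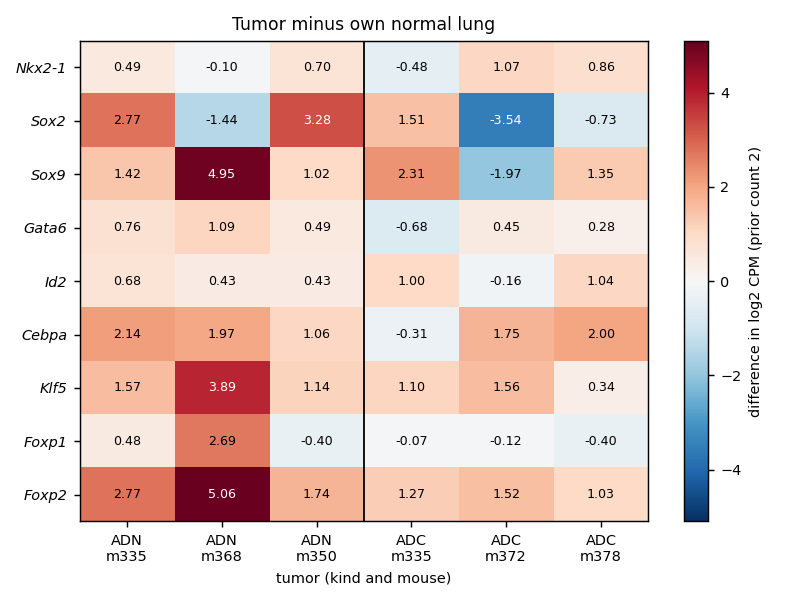
Difference in log2 CPM (prior count 2) of each tumor minus the normal lung of the same mouse for the 9 tested factors, with ADN tumors in the left columns and ADC tumors in the right columns. Klf5 and Foxp2 are above 0 in all 6 columns, and the column of the ADN tumor of mouse m368 holds the largest values for Foxp2 (5.06), Sox9 (4.95), Klf5 (3.89) and Foxp1 (2.69).

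Foxp2 (chromosome 6, 14901349 to 15441977, plus strand) had the largest fold change of the set. Its level was 26.6, 208 and 15.3 CPM in ADN tumors and 9.40, 14.6 and 12.5 CPM in ADC tumors, against 3.86, 6.18, 4.55, 5.04 and 6.08 CPM in normal lungs. Every tumor was above every normal lung, which holds for 3.55% of all tested genes and for 1 of the 9 tested here. The log2 fold change was 2.22 ± 0.58 in tumors (adjusted p = 0.0401 by edgeR), 3.15 ± 0.56 in ADN tumors (adjusted p = 0.0173 by edgeR) and 1.36 ± 0.51 in ADC tumors (adjusted p = 0.2 by edgeR). Without the ADN tumor of mouse m368 it was 1.67 in all tumors (adjusted p = 0.0373 by edgeR) and 2.33 in ADN tumors (adjusted p = 0.0375 by edgeR). The call in all tumors also held without the normal lung of mouse m368 (0.0308) and with mouse m335's ADC tumor left out (0.0216). It was lost when any other single library was left out, with adjusted p from 0.0615 to 0.111. The call in ADN tumors was lost without the ADN tumor of mouse m335 (adjusted p = 0.14 by edgeR), where 0 of all 15097 tested genes were called. It held without each other single library, with adjusted p from 0.0158 to 0.0406 by edgeR. With mouse m350's ADN tumor left out, the value in ADN tumors was 3.87. Counting the top transcript alone gave 2.83 in all tumors (adjusted p = 0.0146 by edgeR) and 2.35 in ADC tumors (adjusted p = 0.0953 by edgeR). That transcript was picked by its mean count over all libraries. It had 3258 counts in the ADN tumor of mouse m368, 66.9 to 206 in the other tumors and 12.8 to 81.6 in normal lungs. Its place as top transcript rests on that 1 tumor, so these values are no independent support.

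Foxp1 (chromosome 6, 98925342 to 99435345, minus strand) was far above the rest in a single tumor. It had 169, 672 and 104 CPM in ADN tumors and 116, 101 and 90.7 CPM in ADC tumors, against 122, 104, 137, 109 and 119 CPM in normal lungs. Apart from the ADN tumors of mice m368 and m335, every tumor lay within or below the normal range. Its log2 fold change was 0.32 ± 0.43 in tumors (adjusted p = 0.695 by edgeR), 0.83 ± 0.53 in ADN tumors and -0.11 ± 0.48 in ADC tumors. With the normal lung of mouse m368 left out, so that its tumor had no partner, the value in all tumors was -0.15. In ADN tumors the value ran from 0.05 without mouse m368 to 1.49 without mouse m350.

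In the ADN tumor of mouse m368, 5 of the 9 tested genes (Sox9, Gata6, Klf5, Foxp1 and Foxp2) reached their highest level of all 11 libraries, beside 15.9% of all tested genes. Of the 26 other lung epithelial factors followed as a list, 7 were highest of all libraries there and 3 were lowest, where 15.9% of all tested genes were highest and 18.3% lowest. Nfib, a factor of distal lung maturation, stood at 1340 CPM, against at most 146 CPM in the other tumors, and Sox4 at 1200 CPM, against at most 110 CPM. In the other direction, the distal lung factors Irx1 and Irx2 stood at 74.3 and 13.9 CPM, against up to 328 and 72.4 CPM in the other tumors. All 4 were picked after their values were seen. What sets this library apart was not tested.

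Both Foxp genes have 3 transcripts in the file, from starts far apart. For Foxp1, the start at 99028298 took 75.7%, 90.4% and 86.7% of the gene's count in ADN tumors and 88.3%, 63.1% and 68.0% in ADC tumors, against 74.4%, 79.8%, 73.0%, 77.2% and 76.1% in normal lungs. The share was highest in the ADN tumor of mouse m368, where the transcript from the farthest start (99435345) held 2.51%, against 7.29% to 24.1% in the other tumors. For Foxp2, the farthest start (14901349) took 53.0%, 10.4% and 44.3% in ADN tumors and 15.4%, 68.4% and 39.3% in ADC tumors, against 58.9%, 20.4%, 45.3%, 69.4% and 87.2% in normal lungs. Tumors and normal lungs overlapped widely, and both libraries of mouse m368 were low, so the share in its tumor is set beside a low share in its own normal lung.

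**Figure D4:**
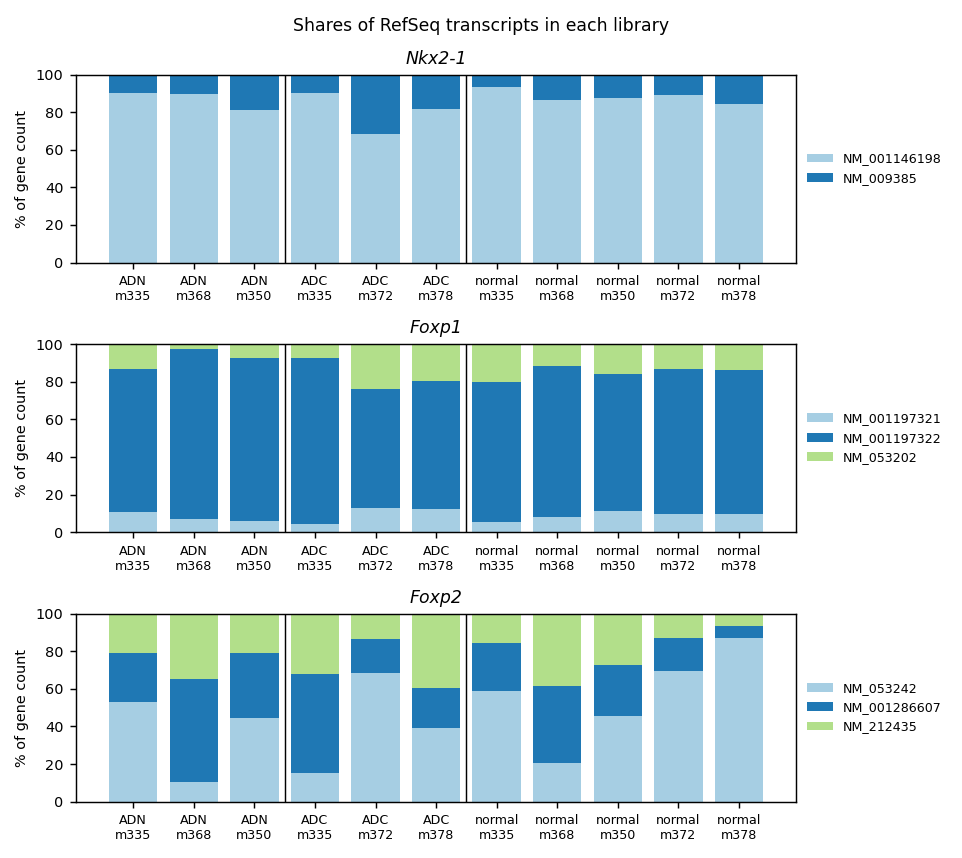
Share of each RefSeq transcript in the gene's estimated count, in percent, for Nkx2-1, Foxp1 and Foxp2, with bars for the 3 ADN tumors, the 3 ADC tumors and the 5 normal lungs from left to right. The transcript from the start at 99028298 takes most of the Foxp1 count in every library, while the Foxp2 shares vary widely within each group.

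The share of the start at 99266515 was 7.13% in the ADN tumor of mouse m368, within the 5.24% to 11.0% of the normal lungs, so the higher share of the main start stood against a lower one of the farthest start. The stretches before the main start and the start at 99266515 are shown because they set the start that takes most of the Foxp1 count beside one that takes little. Both are on the minus strand of chromosome 6 (RefSeq sequence, GRCm38.p6), with the last bases left out where an annotated exon overlaps. The first spans chr6:99028314-99028548, bases -250 to -16 of the main start, and the second chr6:99266533-99266765, bases -250 to -18 of the start at 99266515.

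Foxp1 main start: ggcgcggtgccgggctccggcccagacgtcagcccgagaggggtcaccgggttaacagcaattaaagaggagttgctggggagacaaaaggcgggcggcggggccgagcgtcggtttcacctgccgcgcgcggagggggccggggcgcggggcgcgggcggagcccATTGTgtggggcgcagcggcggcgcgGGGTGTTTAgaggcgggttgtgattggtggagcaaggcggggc
Foxp1 start at 99266515: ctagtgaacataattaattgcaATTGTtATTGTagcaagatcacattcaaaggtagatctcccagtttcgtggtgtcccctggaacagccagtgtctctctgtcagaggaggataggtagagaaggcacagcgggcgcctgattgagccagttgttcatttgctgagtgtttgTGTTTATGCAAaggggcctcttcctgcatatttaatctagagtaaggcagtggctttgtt

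Capitals mark motif matches. The main start has a SOX match on the minus strand at bases -84 to -80, and a KLF match on the minus strand (-58 to -54) that overlaps a forkhead match (-55 to -50). The other start has 2 SOX matches on the minus strand, and a forkhead match (-77 to -72) that overlaps a C/EBP match on the minus strand (-74 to -67). Each holds 1 further match in the bases left out, a KLF match at -15 to -11 for the main start and a forkhead match at -16 to -11 for the other. GC content over the 250 bases was 74.0% at the main start and 45.2% at the other. A match describes letters in this window and not a bound site.

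Sox2 (chromosome 3, 34649995 to 34652460, plus strand) was low and split the tumors of both kinds. It had 8.50, 0.419 and 6.57 CPM in ADN tumors and 3.52, 0.277 and 0.948 CPM in ADC tumors, against 1.19, 1.24, 0.619, 3.90 and 1.62 CPM in normal lungs. The ADN tumors of mice m335 and m350 were above all normal lungs, and the ADN tumor of mouse m368 and the ADC tumor of mouse m372 below all of them. The log2 fold change was -0.01 ± 0.89 in tumors (adjusted p = 0.996 by edgeR), 1.05 ± 1.33 in ADN tumors and -0.95 ± 1.22 in ADC tumors. Ciliated cell markers moved with these levels, and none of the 8 was called or at 0 in every library. They summed to 113, 22.3 and 201 CPM in ADN tumors and 93.2, 15.9 and 40.8 CPM in ADC tumors, against 78.9, 67.0, 32.4, 178 and 89.8 CPM in normal lungs. The highest normal lung in both measures was that of mouse m372, and the lowest tumor in both was the ADC tumor of mouse m372. Their part in the Sox2 levels was not tested. Sox2 lies within Sox2ot on the same strand, with 0 exon bases in common.

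Sox9 (chromosome 11, 112782210 to 112787757, plus strand) rested on few reads. Its counts were 10, 303 and 30 in ADN tumors and 20, 16 and 41 in ADC tumors, against 3, 9, 16, 36 and 21 in normal lungs. In CPM this was 0.335, 10.6 and 1.07 in ADN tumors and 0.676, 0.369 and 1.62 in ADC tumors, against 0.0850, 0.280, 0.495, 1.63 and 0.597 in normal lungs. The ADN tumor of mouse m368 alone was above the normal range. Over all tumors the log2 fold change was 1.65 ± 1.04 (adjusted p = 0.359 by edgeR), and 0.84 with the normal lung of mouse m368 left out. Cartilage markers, a tissue of the airway wall that expresses Sox9, summed to 0.182 to 1.11 CPM in tumors and 0.131 to 0.631 CPM in normal lungs, with 0 of 6 genes past the filter. The ADN tumor of mouse m368 held the highest of these sums, 1.11 CPM. The part of cartilage in the Sox9 levels was not tested.

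Hmga2 (chromosome 10, 120361275 to 120476935, minus strand) was at or near 0. It had 5, 2 and 0 counts in ADN tumors and 3, 5 and 3 counts in ADC tumors, against 1, 2, 1, 1 and 3 counts in normal lungs. These sum to 18 counts in 6 tumors and 8 counts in 5 normal lungs, too few for a test, so a difference was not detectable at this depth. In the list of its regulators and relatives, 8 of 10 genes were tested and 0 were called, with a median of -0.25. Among all tested genes 3.68% were called higher and 7.91% lower. H19 and Igf2bp1, fetal genes of the same axis, had log2 fold changes of -3.45 ± 1.20 and -2.14 ± 0.86 (adjusted p = 0.105 and 0.155 by edgeR).

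In ADC tumors against ADN tumors 0 of 9 genes were called, where 0.0% of all tested genes were called by edgeR. At an unadjusted p under 0.05 edgeR gave 2 of the 9, Gata6 and Foxp2, beside 992 genes in all, and DESeq2 called 125 genes and none of the 9. The fitted difference was below 0 for 8 of 9, with Id2 at 0.17 ± 0.34, and the median was -0.93 against 0.04 for all tested genes. Foxp2 averaged 12.2 ± 2.63 CPM in ADC tumors and 83.4 ± 108 CPM in ADN tumors (SD, n = 3 each), a log2 fold change of -1.79 ± 0.67 (adjusted p = 0.744 by edgeR). Gata6 averaged 34.9 ± 11.1 CPM in ADC tumors and 57.4 ± 14.2 CPM in ADN tumors (SD, n = 3 each), with -0.91 ± 0.35 (adjusted p = 0.744 by edgeR). A change of the tumor difference with months after NNK was called for 0 of 9 genes, with the smallest adjusted p at 0.961, where 0.0% of all genes passed by edgeR. At an unadjusted p under 0.05 edgeR gave 0 of the 9 and 578 genes in all, and DESeq2 called 47 genes. The times of 4 and 6 months rest on 1 mouse each.

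Related factors were followed as lists to set the 10 genes in context. Of 26 other lung epithelial factors, all tested, 7 were called higher in tumors, 1 lower and 18 not called. Among all tested genes 3.68% were higher and 7.91% lower. The median log2 fold change of the 26 was 0.63. Etv4, which acts downstream of fibroblast growth factor signals in the distal lung, averaged 34.6 ± 19.3 CPM in tumors and 0.966 ± 0.658 CPM in normal lungs (SD, n = 6 and 5). The epithelial factors Ehf, Grhl2 and Foxa2 had log2 fold changes of 1.19 ± 0.19, 1.42 ± 0.29 and 1.25 ± 0.26 (adjusted p from 0.00534 to 0.0159 by edgeR). Hopx, a cofactor that marks alveolar type 1 cells, was lower, with a log2 fold change of -1.69 ± 0.22. The type 1 marker sum was 2080 to 3210 CPM in tumors and 4260 to 6300 CPM in normal lungs. Hopx is itself 1 of the 8 genes in that sum. Of these 8 markers 3 were called lower, 0 higher and 5 not called. Aqp5 alone averaged higher in tumors, at 1020 CPM against 532 CPM in normal lungs. In ADN tumors 7 of the 26 were called higher and 2 lower, where 2.68% of all tested genes were higher and 4.84% lower. In ADC tumors 2 were higher and 2 lower, where 1.01% of all tested genes were higher and 3.98% lower.

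Airway factors gave 11 tested genes of 18, with 0 higher and 1 lower in tumors, where 3.68% of all tested genes were higher and 7.91% lower. The lower gene was Hey1, a Notch target also expressed in vessels, at 13.8 ± 4.35 CPM in tumors and 49.2 ± 4.42 CPM in normal lungs (SD, n = 6 and 5). Of 13 gut and liver endoderm factors 4 were tested, and Gata5 was called lower (-2.04 ± 0.37, adjusted p = 0.00868 by edgeR). In ADN tumors 2 of these 4 were called higher, where 2.68% of all tested genes were higher. Hnf4a, a liver and gut factor, had a log2 fold change of 4.96 ± 0.65 there, and Foxq1 2.31 ± 0.33 (adjusted p = 0.00848 and 0.0106 by edgeR). In ADC tumors Hnf4a had -3.06 ± 0.73 (adjusted p = 0.0564 by edgeR), and in ADC against ADN tumors -8.01 ± 0.93 (adjusted p = 0.0947 by edgeR). The highest Hnf4a level was 22.9 CPM, in the ADN tumor of mouse m368, and the other tumors had at most 10.7 CPM. Normal lungs averaged 0.643 CPM, from 97 counts in all, so these Hnf4a fold changes rest on low levels. Against the own normal lung, Hnf4a was higher in 3 tumors and lower in 3.

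Of 36 relatives of the 10 genes 27 were tested, with 1 called higher, 8 lower and 18 not called, where 3.68% of all tested genes were higher and 7.91% lower. Their median was -0.78, against -0.03 for all tested genes. Klf2, Sox7 and Gata2, factors of endothelial and blood cells, had log2 fold changes of -2.20 ± 0.21, -2.27 ± 0.23 and -2.83 ± 0.34, and Sox17 had -1.80 ± 0.28 (adjusted p from 0.000821 to 0.0046 by edgeR). Sox12 was called higher (1.12 ± 0.30, adjusted p = 0.0475 by edgeR), in 5 of 6 tumors against the own normal lung. Of 20 lung mesenchymal and endothelial factors 19 were tested and 16 were lower, 0 higher and 3 not called, with a median of -1.80. Klf2, Sox7, Gata2, Sox17 and Sox18 are in both lists, so the counts of lower genes overlap. Foxf1, a factor of lung mesenchyme and vessels, averaged 37.8 ± 14.1 CPM in tumors and 311 ± 187 CPM in normal lungs (SD, n = 6 and 5), and Tbx2 had a log2 fold change of -2.23 ± 0.22. Fibroblast markers summed to 703 to 1260 CPM in tumors and 1650 to 2440 CPM in normal lungs. Of the 8, 3 were called lower, 0 higher and 5 not called. Col1a1 and Dcn averaged higher in tumors, at 268 and 120 CPM against 195 and 89.4 CPM in normal lungs, and the rest lower. Tcf21 is both a fibroblast marker and 1 of the mesenchymal factors. Mesothelial markers summed to 22.2 to 83.6 CPM in tumors and 154 to 349 CPM in normal lungs. These sums and the endothelial sum move with the lower factors, and their part was not tested.

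**Figure D5:**
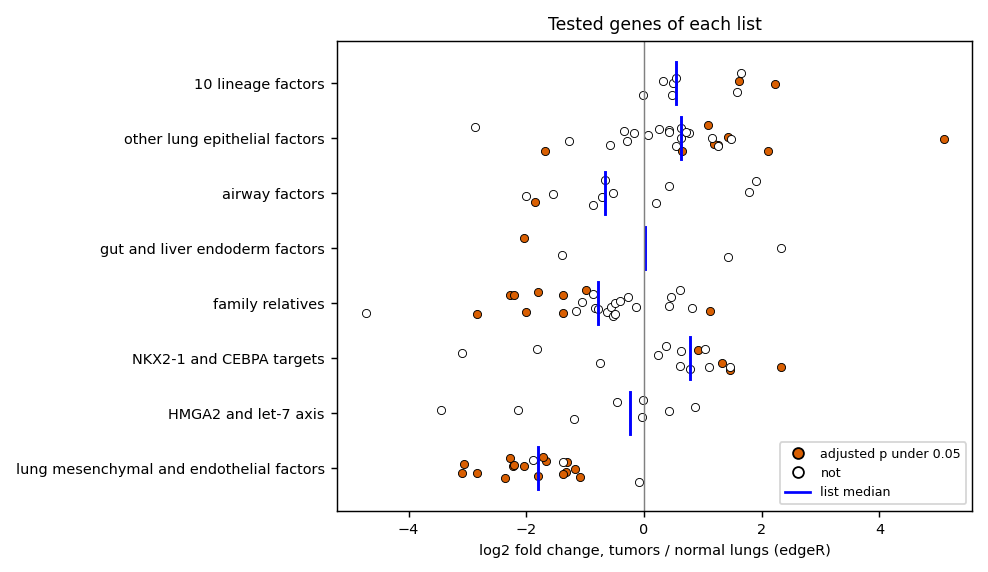
Log2 fold change of tumors over normal lungs for each tested gene of 8 lists, with filled points where edgeR gave an adjusted p under 0.05 and a bar at the list's median (vertical spread is for visibility). The 9 tested lineage factors have a median of 0.54, the other lung epithelial factors 0.63, and the mesenchymal and endothelial factors -1.80.

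For each gene, the most alike patterns over the 11 libraries were found by Pearson's r of log2 CPM among 11472 genes averaging 5 CPM or more. The libraries share mice and the tumor and normal split, so r is given as a measure of likeness only. Cebpa was most like Zdhhc3 (r = 0.987) and Slc35f1 (0.979), and Nkx2-1 was most like Grk3 (0.936) and Phactr4 (0.932). Sox2 was most like Kif19a (0.972) and Dnah6 (0.954), both genes of motile cilia. Foxp1 was most like Pura (0.978) and Msl1 (0.975), and Foxp2 was most like Ubxn4 (0.980) and Limd1 (0.977). All 4 of these were highest in the ADN tumor of mouse m368, with Pura at 467 CPM there against at most 45.1 CPM in any other library. Klf5 was most like Tmco4 (0.973). Gata6 was most like Rap1gap (0.969) and Cmtm8 (0.966), and Id2 was most like Cyp1b1 (0.965) and Cd177 (0.951). Sox9 and Hmga2, at their low counts, were most like Lig4 (0.942) and Entpd4 (0.954).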

How the data were processed

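Per the labels' protocols, poly-A RNA (integrity number 7 or above) was made into libraries (Ion Total RNA-Seq Kit v2), then read on an Ion Proton sequencer. The deposited values are the authors' expected counts, 1 row per RefSeq transcript (36285 rows) and 1 column per library, not normalized. The submitters' processing notes name STAR 2.4.1d, Bowtie2 2.1.0, Partek and the build mm10 (GRCm38); what each tool did, and whether counting used strand, is not given in the sources used here.

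Transcript rows were summed by gene symbol and rounded to whole numbers. Genes were filtered with filterByExpr by tissue, which kept 15175 genes with 99.9% of counts. Counts were scaled by TMM and fitted with edgeR 4.0.16 (quasi-likelihood, robust) in R 4.3.3, with the mouse as a fixed block. Tests were two-sided, and adjusted p-values follow Benjamini and Hochberg over all tested genes, with a threshold of 0.05. Tumors against normal lungs came from a fit of 2 groups, the ADN and ADC comparisons from a fit of 3 groups, and the month effect from a linear term. The model was tested on simulated data. Levels are CPM on TMM-scaled library sizes, and marker sums are CPM of library totals. Alternatives were DESeq2 1.42.0, other scalings, no filter, no block, the top transcript per gene, and leaving out each mouse and library.

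The labels name the mouse of each library, so tumors and normal lungs are paired by mouse. The correlation of each tumor's deviations from its group mean with those of its mouse's normal lung was 0.240, 0.109, 0.00493, -0.0444, -0.0367 and 0.254. Each replicate of a group is a separate mouse. The file's starts equal RefSeq GRCm38.p6 starts for 14885 of 23558 genes while 14750 stops exceed the RefSeq end by 1, and printed ends have that base removed. Promoter stretches come from RefSeq. Named genes were, per list, at most 4 called genes in each direction by smallest adjusted p, or the 2 with the smallest p where none was called. Hnf4a, Foxq1, Nfib, Sox4, Irx1, Irx2, Scgb1a1, Scgb3a2, Cyp2f2, Aqp5, Col1a1 and Dcn fall outside that rule and were chosen after their values were seen. The 10 genes and the lists were chosen with earlier results of these data known. Counts limit precision for Sox2, Sox9 and Hmga2, and no intervals on counting are given beyond the spread between mice.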

Additional observations from a re-analysis of the deposited data

Results flagged for a closer look

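Values were flagged where the highest or lowest library of a group lay farther from the rest than Dixon's 95% limit allows. In all, 20 groups were looked at. Chance alone flags about 1 in 20 where values follow a Gaussian distribution, and whether CPM do was not tested. Flags that fall on the same library are not independent. Among the 6 tumors, the ADN tumor of mouse m368 was set apart as the highest for 4 genes. These were Foxp2 at 208 CPM, Foxp1 at 672 CPM, Klf5 at 122 CPM and Sox9 at 10.6 CPM. Among the 5 normal lungs, Cebpa stood apart in mouse m350 at 296 CPM. The causes were not tested.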

How the results depend on the processing

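In tumors against normal lungs, 2 of the 9 tested genes were called. DESeq2 called 4 (Id2, Cebpa, Klf5 and Foxp2), no filter 1 (Cebpa), the fit without the mouse block 3, and leaving out a mouse or library 0 to 5. Over all genes the main fit called 1759 of 15175, DESeq2 3286, no filter 1602 of 21124 and no block 2242. Leaving out a mouse or library gave from 917 of 15300 to 3377 of 15106 genes. In ADN tumors against normal lungs the 2 calls became 4 with DESeq2, 4 without the block and 1 with the top transcript per gene. With a mouse or library left out they were 0 to 4. Over all genes the main fit called 1142 of 15175, DESeq2 2931, no block 1779 and the top transcript 830 of 15061. Leaving out a mouse or library gave from 0 of 15097 to 1972 of 15106 genes. In ADC tumors against normal lungs the 0 calls became 1 without the block (Cebpa, 1.36, adjusted p = 0.0471 by edgeR). With a mouse or library left out they were 0 to 1. Over all genes the main fit called 757 of 15175 and no block 1546. Leaving out a mouse or library gave from 65 of 15300 to 1067 of 15106 genes. The month effect gave 0 to 3 calls with a mouse or library left out, the 3 (Klf5, Foxp1 and Foxp2) without mouse m335, when the 4-month time is gone and 405 of 15144 genes were called. ADC against ADN stayed at 0 calls of the 9 in every alternative run.

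Signs turned for Sox2 in tumors (RLE scaling 0.01, no block 0.98), Gata6 in ADC tumors (no block 0.10), Nkx2-1 in ADC against ADN (no block 0.18) and Foxp2 per month (no block 0.00), none of them called. Leaving out a mouse or library turned 16 of 45 fitted values, all uncalled in the fit of all libraries. In tumors, Sox2 ran from -0.96 to 0.96 and Foxp1 from -0.15 to 0.50. In ADN tumors Sox2 ran from -0.17 to 2.31. In ADC tumors Sox2 ran from -2.24 to 0.15, Sox9 from -0.32 to 2.44, Gata6 from -0.24 to 0.38 and Foxp1 from -0.27 to 0.02. In ADC against ADN, Nkx2-1 ran from -0.37 to 0.62, Sox9 from -3.54 to 0.09, Id2 from -0.12 to 0.45 and Cebpa from -1.38 to 0.31. Per month, Sox2 ran from -1.56 to 1.04, Gata6 from -0.72 to 0.33, Id2 from -0.24 to 0.00, Cebpa from -0.40 to 0.61 and Klf5 from -2.92 to 0.06. The causes were not tested.

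Over all genes, DESeq2 called 3286 in tumors (edgeR 1759), 2931 in ADN tumors (1142) and 1858 in ADC tumors (757), and 125 in ADC against ADN and 47 per month (0 each). Without the block edgeR called 1779 in ADN tumors, 1546 in ADC tumors and 3 in ADC against ADN, without the filter 5 in ADC against ADN, and with the top transcript 470 in ADC tumors. Library totals moved the median of all genes in tumors to -0.22 and the share of calls that were higher to 17.3%, against 31.7% with TMM; in ADN tumors that share was 23.9%, against 35.6%. Foxp2 without the block was 3.21 in tumors and 4.02 in ADN tumors (adjusted p = 0.0231 and 0.00345 by edgeR). No sign of the 9 genes turned under library totals. Sox2, Sox9 and Hmga2 are limited by depth.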
